A study of Homo sapiens with 48 samples.

Results

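The genes described here are 10 genes of polyamine metabolism, ODC1, AMD1, SRM, SMS, SAT1, AZIN1, OAZ1, OAZ2, PAOX and SMOX. They were taken by gene symbol from a count table of 61815 genes, by a rule that uses no measured value, although the list was drawn up with earlier results of these data known. All 10 were among the 20009 genes that passed the filter on low counts. RNA was sequenced from 48 cultures of 22Rv1, an established human castration-resistant prostate cancer line, and of its derivatives. Rv1-WT denotes parental cells, and Rv1-Luc denotes cells transduced with a lentivirus for firefly luciferase. The dKO lines lack both Mediator kinase genes, CDK8 and CDK19, through knockout, and received 1 kinase by re-expression. dKO-8 and dKO-19 carry active CDK8 or active CDK19, while dKO-8M and dKO-19M carry a mutant of the same kinase without catalytic activity. The CDK8 derivatives were made from knockout cells that already held an empty vector, and the CDK19 derivatives from the knockout cells themselves. Cultures of the dKO lines had fetal bovine serum (FBS), and those of the other 2 lines had either FBS or androgen-poor serum stripped with charcoal (CSS). Every line and medium received SNX631, which inhibits CDK8 and CDK19, at 500 nM or 0.1% DMSO (vehicle) for 72 hours, which gives 16 groups of 3 biological replicates. CSS cultures had been passaged in CSS beforehand and were seeded at a higher density than FBS cultures, so medium, passage and density cannot be told apart.

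Polyamines (putrescine, spermidine and spermine) are small cations that bind RNA and DNA and are needed for cell growth. Ornithine decarboxylase (ODC1) makes putrescine, and the synthases SRM and SMS extend it to spermidine and spermine with aminopropyl groups from S-adenosylmethionine that AMD1 has decarboxylated. SAT1 acetylates spermidine and spermine for export or for oxidation by PAOX, and SMOX oxidises spermine directly. The antizymes OAZ1 and OAZ2 bind ODC1 and bring it to the proteasome, and AZIN1 is an inactive ODC1 relative that captures antizyme. The prostate is known for its high output of polyamines, which are secreted into seminal fluid. Several of these proteins are controlled by translation and turnover, which RNA counts do not measure.

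Libraries held 13.2 to 31.5 M counts (median 21.4 M, M for mega), with 13.2 to 18.2 M in Rv1-WT and 19.5 to 27.3 M in Rv1-Luc. Of the luminal prostate markers, HOXB13 was between 173 and 317 CPM (counts scaled to the same total in every library) and EPCAM between 78.8 and 111, whereas the basal markers KRT5, KRT14 and TP63 stayed at or below 0.231 CPM. Of the fibroblast markers COL1A1 reached 10.8 and LUM 15.7 CPM, and COL1A2, DCN and the leukocyte and endothelial markers stayed under 1 CPM, so the labelled cell type had its markers. A change in RNA per cell and a change in the mix of cells cannot be told apart in such bulk samples. CDK8 RNA averaged 68.6 CPM in dKO-8 with vehicle and 123 in dKO-8M, against 26.8 in Rv1-WT in FBS, and CDK19 averaged 510.04 CPM in dKO-19 and 332 in dKO-19M, against 149 in Rv1-WT. The knocked-out kinase kept its RNA, since CDK8 averaged 27.7 CPM in dKO-19 and CDK19 103 CPM in dKO-8, so RNA counts do not check the knockout itself. The dKO-19M vehicle library of replicate 1 and the Rv1-Luc FBS vehicle library of replicate 1 stood furthest from their replicates, since the chi-square per degree of freedom between replicates reached 16.5 and 9.15 there, against a median of 2.04 over 48 pairs. For the 10 genes, changes that passed the test and rest on these libraries are given below with and without them.

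The 10 genes spanned more than 2 orders of magnitude in level. Per kilobase of exon (GENCODE 29 gene models, a release that may differ from that used for counting), the median over 48 libraries was 185 CPM per kb for OAZ1, 104.8 for ODC1, 58.3 for SRM and 56.4 for AMD1. AZIN1 followed at 41.2, SMS at 32.01, SAT1 at 13.8 and OAZ2 at 8.74, and SMOX and PAOX came last at 1.39 and 1.24. The ranges over libraries of neighbours in this order overlapped for every pair except SAT1 with SMS and OAZ2 with SMOX, although SAT1 and OAZ2 overlapped only between 9.35 and 10.3 CPM per kb. The low pair rested on few reads, 38.2 to 119 counts per library for PAOX and 23 to 138 for SMOX, against at least 337 for every other gene. Counts of PAOX held fractions in 35 of 48 libraries, OAZ1 in 27, AZIN1 in 26 and SAT1 in 19, and the counting options behind these fractions are not given in the sources used here. In the GENCODE 29 models OAZ1 shares 3966 bases, and PAOX 861, with another gene on the same strand, and their levels are uncertain to that extent.

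**Figure D1:**
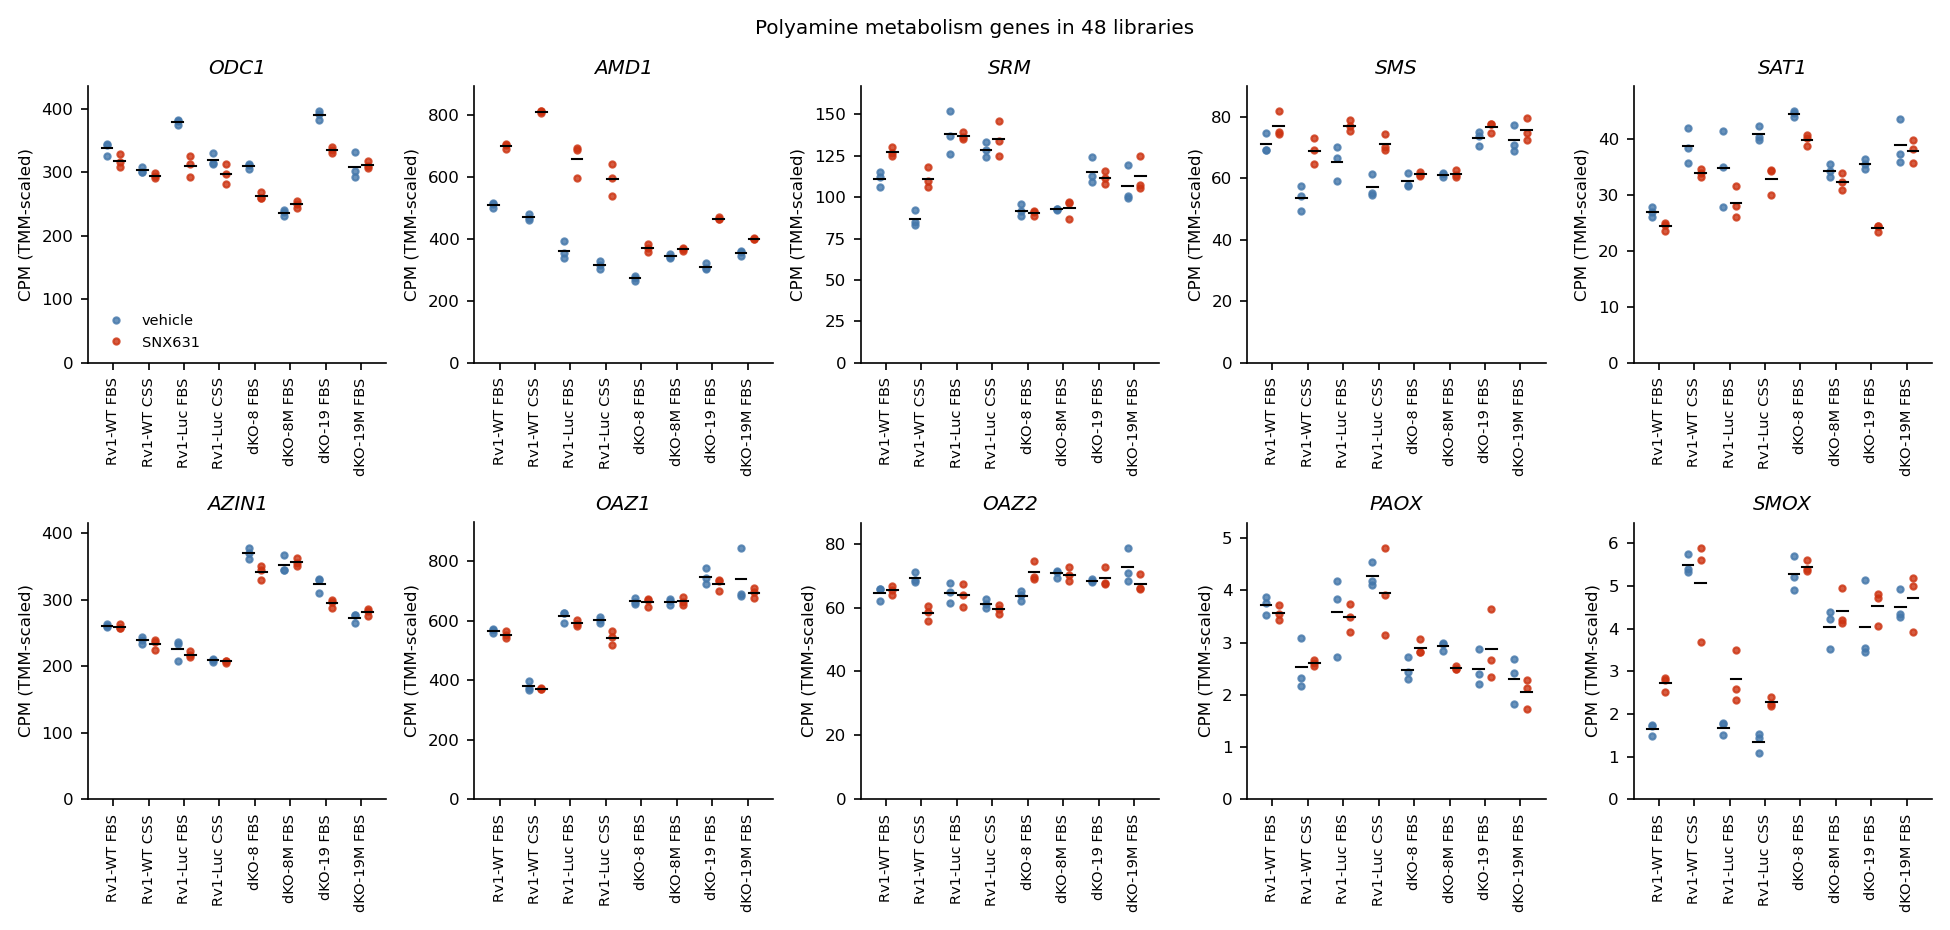
Levels of the 10 polyamine metabolism genes in CPM, scaled by TMM, in 48 libraries (points) with group means (black lines), by line and medium on the horizontal axis, vehicle in blue and SNX631 in red. AMD1 with SNX631 sits above vehicle in every line, least so in the mutant lines, and group means of SMOX are lowest in Rv1-Luc and in Rv1-WT in FBS.

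AMD1, which supplies the aminopropyl donor, gave the widest response to SNX631. In Rv1-WT in FBS it stood at 499, 514 and 515 CPM with vehicle and at 706, 690.1 and 705 with SNX631. In Rv1-WT in CSS the 3 values were 482, 468 and 461 with vehicle and 814, 807 and 814 with SNX631. In each of the 2 media the SNX631 libraries lay above all vehicle libraries. In Rv1-Luc the FBS libraries went from 394, 338 and 354 CPM to 694, 598 and 688. The CSS libraries of Rv1-Luc went from 329, 304 and 316 CPM to 598, 539 and 642. Again no SNX631 library overlapped a vehicle library. In dKO-8 AMD1 was 264, 279 and 275 CPM with vehicle and 384, 372 and 359.7 with SNX631. In dKO-19 it was 303, 322 and 306 CPM with vehicle and 465, 464 and 469.8 with SNX631. These groups did not overlap either.

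The fold change of AMD1 with SNX631 was 1.38 in Rv1-WT in FBS (log2 0.46 ± 0.046 SE, edgeR FDR 8.79e-12) and 1.73 with CSS (edgeR FDR 3.92e-21). For Rv1-Luc it was 1.82 with FBS (edgeR FDR 4.01e-23) and 1.88 with CSS (edgeR FDR 8.01e-24), and the FBS change was 0.93 on the log2 scale without the vehicle library of replicate 1 (edgeR FDR 2.45e-23). It was 1.36 in dKO-8 (log2 0.45 ± 0.046, edgeR FDR 2.77e-11) and 1.50 in dKO-19 (log2 0.59 ± 0.046, edgeR FDR 6.62e-16). The kinase-inactive lines gave smaller values. In dKO-8M the libraries were 352, 343 and 338 CPM with vehicle and 372, 362 and 369 with SNX631, a log2 change of 0.09 (95% interval 0.0017 to 0.186, edgeR FDR 0.513). In dKO-19M they were 344, 363 and 357 with vehicle and 399, 402 and 404 with SNX631, a log2 change of 0.18 (95% interval 0.088 to 0.272, edgeR FDR 0.0181). The SNX631 libraries of both mutant lines lay above their vehicle libraries, although neither change passed the test. Over the alternatives tried, the dKO-19M change had an FDR between 0.0091 and 0.326, and it was under 0.01 in 2 of 12. Without the dKO-19M vehicle library of replicate 1 it was 0.16 (edgeR FDR 0.111). Tested directly, the response was larger in dKO-8 than in dKO-8M by 0.35 on the log2 scale (edgeR FDR 0.000119) and larger in dKO-19 than in dKO-19M by 0.41 (edgeR FDR 4.05e-06), or by 0.43 without the dKO-19M vehicle library of replicate 1 (edgeR FDR 2.74e-06). The responses of dKO-19 and dKO-8 differed by 0.14 (95% interval 0.0102 to 0.271, edgeR FDR 0.251). The response was larger in CSS than in FBS in Rv1-WT, by 0.33 (edgeR FDR 0.000865), and the same difference in Rv1-Luc was 0.04 (95% interval -0.087 to 0.171, edgeR FDR 0.911). In FBS it was larger in Rv1-Luc than in Rv1-WT by 0.41 (edgeR FDR 2.93e-05), or by 0.47 without the Rv1-Luc vehicle library of replicate 1 (edgeR FDR 6.08e-07), a difference that had an FDR of 0.016 when only those libraries were fitted, the highest over 18 alternatives that started at 5.62e-09.

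**Figure D2:**
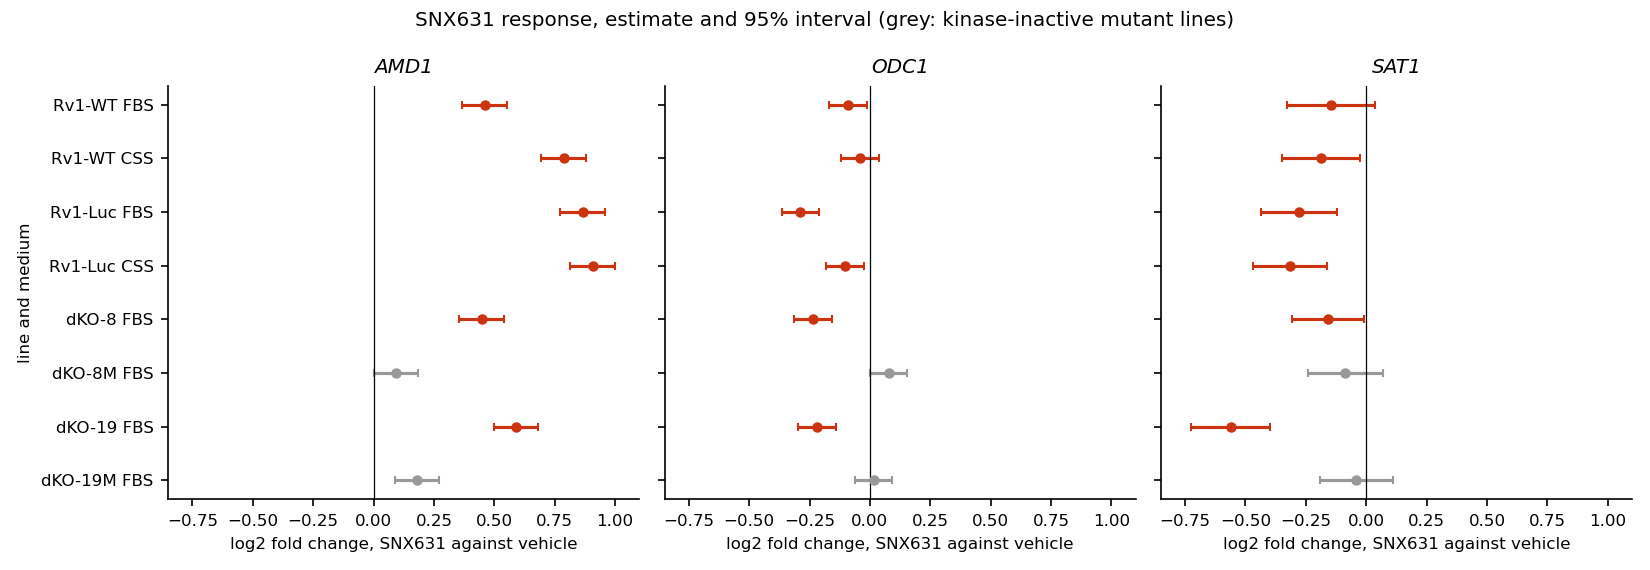
Log2 fold change of AMD1, ODC1 and SAT1 with SNX631 against vehicle (horizontal axis) in each line and medium (vertical axis), with 95% intervals from the edgeR fit, n = 3 libraries per group, and the kinase-inactive mutant lines in grey. The AMD1 estimates run from 0.45 to 0.91 in the lines with an active kinase and are 0.09 and 0.18 in the mutant lines.

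ODC1, the enzyme of the entry step, moved in the opposite direction from AMD1 and by less. In Rv1-Luc in FBS it was 376, 380.5 and 382 CPM with vehicle and 294, 313 and 326 with SNX631, a fall to 0.819-fold (log2 -0.29 ± 0.0385 SE, edgeR FDR 2.48e-08), which without the vehicle library of replicate 1 was -0.30 on the log2 scale (edgeR FDR 1.71e-07). In dKO-8 it was 311, 313 and 305 with vehicle and 260.3, 269.8 and 259 with SNX631, a fall to 0.849-fold (edgeR FDR 5.91e-06). In dKO-19 it was 391, 383 and 397 with vehicle and 335, 340.4 and 331 with SNX631, a fall to 0.859-fold (edgeR FDR 1.11e-05). In all 3 lines the SNX631 libraries lay below every vehicle library. In Rv1-WT the log2 change was -0.09 in FBS (edgeR FDR 0.126) and -0.04 in CSS (edgeR FDR 0.49), and it was -0.10 in Rv1-Luc in CSS (edgeR FDR 0.0419). It was 0.08 in dKO-8M (95% interval -0.0014 to 0.155) and 0.02 in dKO-19M (95% interval -0.0623 to 0.0926). The response of dKO-8 was below that of dKO-8M by 0.31 on the log2 scale (log2 difference -0.31, edgeR FDR 5.97e-05), and that of dKO-19 was below that of dKO-19M (log2 difference -0.23, edgeR FDR 0.00198). The latter difference no longer passed with scaling by library size alone (edgeR FDR 0.0116), with only those libraries fitted (edgeR FDR 0.0427) and without the dKO-19M vehicle library of replicate 3 (edgeR FDR 0.0141), whereas without replicate 1 the difference was -0.29 (edgeR FDR 1.6e-05). The range over its 18 alternatives was 1.6e-05 to 0.0427.

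The upstream sequences of AMD1 and ODC1 are shown because these genes responded in opposite directions where both passed the test, and that of SRM because, of the 3 printed, it is the one with CACGTG. RefSeq windows were taken for 7 of the 10 genes, SRM, ODC1, AMD1, OAZ1, OAZ2, SMS and SAT1. AZIN1 was left out of the search, and no window was found for PAOX or SMOX. Each line gives the 250 bases before a transcription start (GRCh38.p14), AMD1 (ENSG00000123505.19) at chr6:110874534-110874783 on the plus strand, ODC1 (ENSG00000115758.14) at chr2:10448328-10448577 on the minus strand and SRM (ENSG00000116649.10) at chr1:11060019-11060268 on the minus strand. Capitals mark matches to the motifs searched.
AMD1: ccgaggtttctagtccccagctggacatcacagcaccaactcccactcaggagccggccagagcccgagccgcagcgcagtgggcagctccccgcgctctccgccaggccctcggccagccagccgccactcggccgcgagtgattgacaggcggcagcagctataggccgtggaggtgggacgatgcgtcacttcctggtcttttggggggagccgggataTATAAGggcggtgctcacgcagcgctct
ODC1: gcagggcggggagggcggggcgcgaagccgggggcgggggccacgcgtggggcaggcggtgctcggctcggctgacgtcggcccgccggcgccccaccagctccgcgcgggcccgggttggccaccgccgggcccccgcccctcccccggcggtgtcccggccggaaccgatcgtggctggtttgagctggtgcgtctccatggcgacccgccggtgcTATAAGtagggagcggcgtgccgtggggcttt
SRM: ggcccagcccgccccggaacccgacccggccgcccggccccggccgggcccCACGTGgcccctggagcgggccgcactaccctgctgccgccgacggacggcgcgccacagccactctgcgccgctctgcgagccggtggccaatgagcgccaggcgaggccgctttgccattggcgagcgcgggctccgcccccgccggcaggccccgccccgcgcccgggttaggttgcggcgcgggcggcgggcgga
The motifs searched on both strands were CACGTG (a form of the E-box), TGATGNAA, AGAACA and TATAAN, the last added after the windows had been read. Other forms of the E-box were not searched and are not marked. AMD1 has TATAAG starting 28 bases before the start and ODC1 has TATAAG starting 32 bases before it. SRM has CACGTG starting 199 bases before its start, and a second ODC1 window, at a start further into the gene, holds 2 copies. Neither TGATGNAA nor AGAACA was in any window of the 7 genes. Among all 35116 RefSeq windows of 300 bases, 7.26% hold CACGTG, 3.62% TGATGNAA, 14.8% AGAACA and 20.4% TATAAN, so the matches describe these windows and no more.

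The synthases SRM and SMS moved less than AMD1. In Rv1-WT in CSS, SRM was 83.0, 84.9 and 92.5 CPM with vehicle and 118, 109.7 and 106 with SNX631, a rise of 1.28-fold (log2 0.36 ± 0.066 SE, edgeR FDR 3.49e-05). SMS in the same cultures was 49.3, 54.1 and 57.3 CPM with vehicle and 64.8, 73.2 and 69.0 with SNX631, a rise of 1.29-fold (edgeR FDR 8.17e-07). For both genes the groups did not overlap. SMS also rose in Rv1-Luc in CSS, 1.25-fold (edgeR FDR 5.73e-06), and in FBS, 1.18-fold (edgeR FDR 0.000422), where it was 0.30 on the log2 scale without the vehicle library of replicate 1 (edgeR FDR 6.81e-05). The FBS change no longer passed without the vehicle library of replicate 2 (log2 0.17, edgeR FDR 0.0209, the highest over its alternatives) or with only those libraries fitted (edgeR FDR 0.0171). In Rv1-WT in FBS the log2 changes were 0.20 for SRM (edgeR FDR 0.0343) and 0.12 for SMS (edgeR FDR 0.158), and that of SRM passed without a filter (edgeR FDR 0.00625) and with only those libraries fitted (edgeR FDR 0.00084). The log2 change of SRM was between -0.05 and 0.08 in Rv1-Luc and in the dKO lines, and that of SMS between 0.01 and 0.07 in the dKO lines.

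SAT1, which starts polyamine breakdown, had its largest response to SNX631 in dKO-19. There it was 35.5, 34.5 and 36.4 CPM with vehicle and 24.4, 24.4 and 23.4 with SNX631, a fall to 0.678-fold (log2 -0.56 ± 0.082 SE, edgeR FDR 2.62e-07) without overlap. In dKO-19M it was 43.5, 37.2 and 35.8 CPM with vehicle and 39.7, 35.6 and 38.1 with SNX631, and these groups overlapped. The difference between these responses was -0.52 on the log2 scale (edgeR FDR 0.000713), and it was -0.61 without the dKO-19M vehicle library of replicate 1 (edgeR FDR 4.36e-05). In dKO-8 the log2 change was -0.16 (edgeR FDR 0.165), and the test of dKO-19 against dKO-8 gave a difference of -0.40 (edgeR FDR 0.0199). That difference passed under 2 of 18 alternatives, with no filter on low counts (edgeR FDR 0.000697) and with only those libraries fitted (edgeR FDR 3.76e-05), and its highest FDR was 0.0566. In Rv1-Luc in CSS SAT1 was 42.2, 40.3 and 39.7 CPM with vehicle and 34.3, 34.2 and 29.9 with SNX631, a fall to 0.804-fold (edgeR FDR 0.0013). This change no longer passed without the vehicle library of replicate 1 (edgeR FDR 0.0123) or the SNX631 library of replicate 3 (edgeR FDR 0.0261, the highest over its alternatives, which started at 9.38e-06). In Rv1-Luc in FBS, SAT1 was 27.7, 41.3 and 34.9 CPM with vehicle and 28.0, 31.5 and 25.9 with SNX631. The groups overlapped, and the log2 change of -0.28 (edgeR FDR 0.00616) was -0.13 without the vehicle library of replicate 2 (edgeR FDR 0.267) and -0.42 without that of replicate 1 (edgeR FDR 7.71e-06). Leaving out the vehicle library of replicate 3 (edgeR FDR 0.0224) or the SNX631 library of replicate 1 (edgeR FDR 0.0256) or 3 (edgeR FDR 0.0745), or fitting only those libraries (edgeR FDR 0.254), also put it above the limit, and 7 of 12 alternatives kept it under 0.01.

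SMOX, the spermine oxidase, was present at a few CPM. In Rv1-Luc in FBS it was 1.78, 1.76 and 1.50 CPM with vehicle and 2.59, 2.34 and 3.50 with SNX631, a rise of 1.66-fold (log2 0.73 ± 0.18 SE, edgeR FDR 0.00158). In Rv1-Luc in CSS it was 1.44, 1.08 and 1.52 CPM with vehicle and 2.40, 2.18 and 2.24 with SNX631, a rise of 1.67-fold (log2 0.74 ± 0.20 SE, edgeR FDR 0.00386). In Rv1-WT in FBS it was 1.70, 1.74 and 1.49 CPM with vehicle and 2.83, 2.51 and 2.8 with SNX631, a log2 change of 0.73 that did not pass the test (edgeR FDR 0.0137). In these 3 settings no SNX631 library overlapped a vehicle library. In Rv1-WT in CSS SMOX averaged 5.49 CPM with vehicle and 5.06 with SNX631, and the groups overlapped. That change did not pass the test, and its log2 estimate over the alternatives ran from -0.24 to 0.06. Tested directly, the SNX631 response of SMOX in CSS minus that in FBS did not pass in Rv1-WT either. Its FDR over 18 alternatives, edgeR fits and DESeq2, ran from 0.028 to 0.169. The FBS change in Rv1-Luc was 0.78 on the log2 scale without the vehicle library of replicate 1 (edgeR FDR 0.00419). Its call was lost without the vehicle library of replicate 3 (edgeR FDR 0.0144) or the SNX631 library of replicate 3 (edgeR FDR 0.0479), and its FDR over all alternatives ran from 0.000686 to 0.0479. The CSS call was lost without the vehicle library of replicate 2 (edgeR FDR 0.0362) or the SNX631 library of replicate 1 (edgeR FDR 0.0193) or 3 (edgeR FDR 0.0118), with a range of 0.00291 to 0.0362. Both calls were also lost when only those libraries were fitted (edgeR FDR 0.0249 in FBS and 0.0134 in CSS). In the dKO lines SMOX was between 3.45 and 5.71 CPM in every library, and its log2 change with SNX631 was between 0.04 and 0.17. PAOX, the acetylpolyamine oxidase, was between 1.74 and 4.82 CPM in all libraries, and its log2 change with SNX631 lay between -0.23 and 0.22 without passing the test in any line.

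The antizymes and AZIN1 moved little with SNX631. OAZ2 in Rv1-WT in CSS was 68.7, 68.1 and 71.3 CPM with vehicle and 58.7, 60.5 and 55.9 with SNX631, a fall to 0.841-fold (edgeR FDR 6.99e-05). In dKO-8 OAZ2 lay higher with SNX631, at 74.5, 69.6 and 69.1 CPM against 62.1, 65.1 and 64.1 with vehicle. That rise did not pass the test, although it did under 3 of 12 alternatives, DESeq2 among them (adjusted p 0.00996). AZIN1 in dKO-19 was 309.9, 332 and 329.9 CPM with vehicle and 288, 299 and 298 with SNX631, a fall to 0.910-fold (edgeR FDR 0.00543) without overlap. OAZ1 in Rv1-Luc in CSS was 600.3, 613 and 591 CPM with vehicle and 545, 518 and 564 with SNX631, a fall to 0.902-fold (edgeR FDR 0.00795). Neither of the last 2 changes held under every alternative. That of AZIN1 had an FDR of 0.113 with scaling by library size alone and 0.0169 without a filter, and no longer passed without the vehicle library of replicate 2 (edgeR FDR 0.0397) or 3 (edgeR FDR 0.0364) or any 1 of the SNX631 libraries (edgeR FDR 0.0103 to 0.0445). That of OAZ1 no longer passed without any 1 of the vehicle libraries (edgeR FDR 0.0131 to 0.0416) or without the SNX631 library of replicate 1 (edgeR FDR 0.0209) or 2 (edgeR FDR 0.0768).

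Counted over the list, a gene passed the test at an FDR under 0.01 and was called when its fold change was also over 1.5. With SNX631, 1 of 10 genes passed and 0 were called in Rv1-WT in FBS, where 8.78% of all tested genes passed and 2.39% were called. In Rv1-WT in CSS 4 passed and 1 was called, against 17.6% and 4.23% of all genes. In Rv1-Luc 5 passed and 2 were called in FBS, against 13.2% and 3.67%, and 5 passed and 2 were called in CSS, against 15.8% and 4.06%. In dKO-8 2 passed and 0 were called, against 7.76% and 1.71%. In dKO-19 4 passed and 1 was called, against 13.2% and 3.41%. In dKO-8M 0 of 10 passed, against 0.15% of all genes (0.015% called), and in dKO-19M 0 passed, against 0.955% (0.09% called). At an unadjusted edgeR p under 0.05 the last 2 counts were 1 and 3. DESeq2 passed 0 and 1 of the list, against 72 and 295 of all 20009 genes. Median log2 changes of the list stayed between -0.03 and 0.03 in these 8 comparisons, beside medians of all genes between -0.002 and 0.007, with members on both sides of 0. The called genes were AMD1 in Rv1-WT in CSS, in Rv1-Luc in both media and in dKO-19, and SMOX in Rv1-Luc in both media. For the call of AMD1 in dKO-19 the fold change of 1.50 sat at the limit, and the call ended without the vehicle library of replicate 1 or 3 or the SNX631 library of replicate 3, with a log2 change of at least 0.57 throughout. Tests of the difference between responses passed for 1 gene for CSS against FBS in Rv1-WT (1.38% of all genes, 0.295% called), 0 in Rv1-Luc (0.17%, 0.08% called) and 1 for Rv1-Luc against Rv1-WT (0.655%, 0.18% called). They passed for 2 genes for dKO-8 against dKO-8M (3.31%, 0.905% called), 3 for dKO-19 against dKO-19M (5.66%, 2.07% called) and 0 for dKO-19 against dKO-8 (2.43%, 0.885% called). No gene of the list was called in these 6 tests. In the 2 with 0 passing, 1 and 3 genes had an unadjusted edgeR p under 0.05. DESeq2 passed 0 of the list there, against 51 and 569 of all 20009 genes. The share of all genes under that unadjusted p is not given here, so the counts at it have no background.

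**Figure D3:**
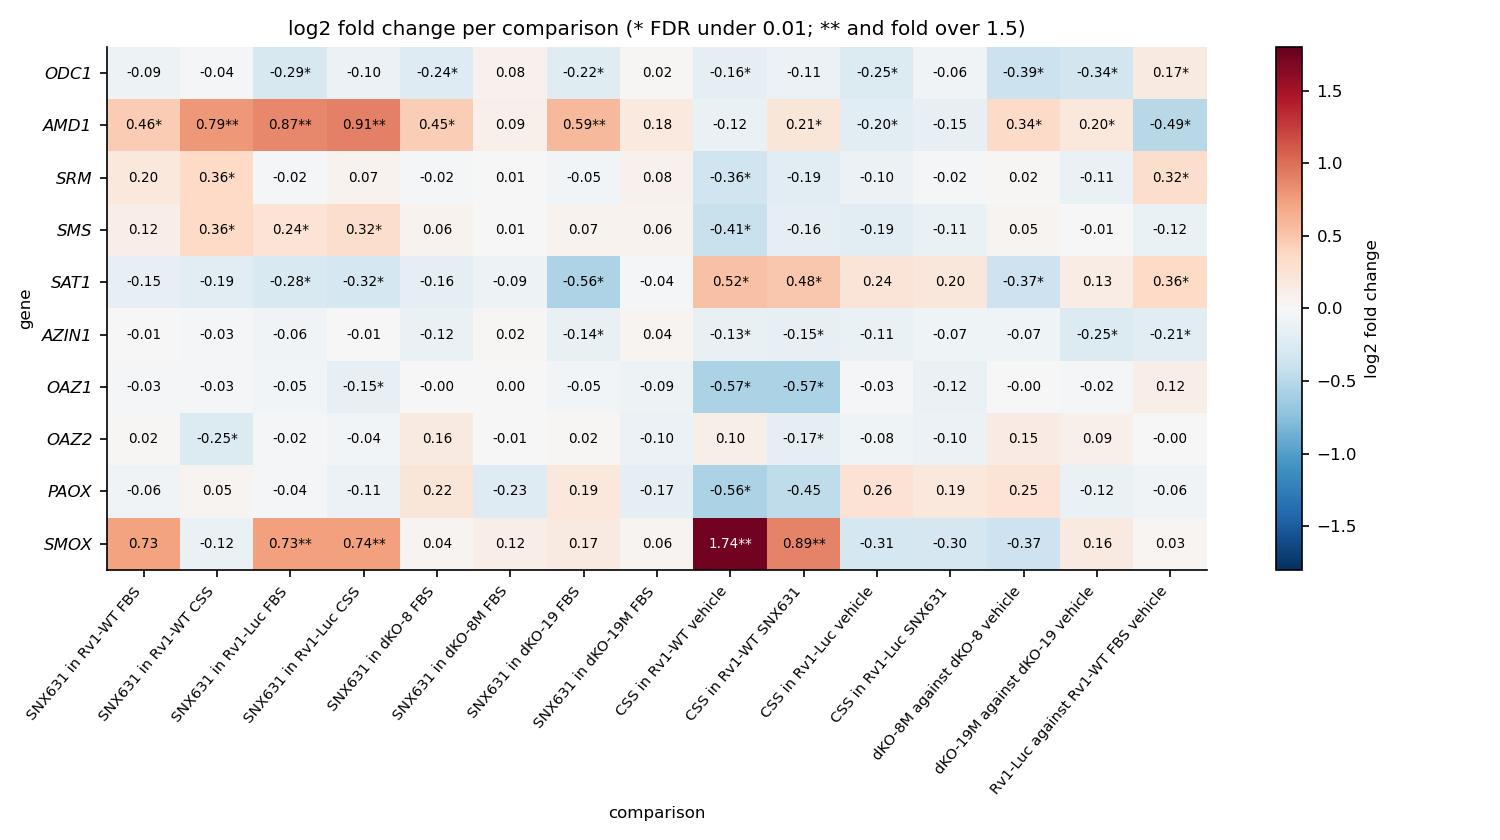
Log2 fold change of each gene (rows) in the 15 comparisons of 2 groups (columns), with n = 3 libraries per group. A single asterisk marks an edgeR FDR under 0.01 and a double asterisk also a fold change over 1.5, and the AMD1 row holds 4 of the double marks and the SMOX row the other 4.

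Growth in CSS moved the breakdown genes and the antizyme in Rv1-WT. SMOX with vehicle was 1.70, 1.74 and 1.49 CPM in FBS and 5.39, 5.33 and 5.75 in CSS, a rise of 3.33-fold (log2 1.74 ± 0.19 SE, edgeR FDR 9.03e-12). With SNX631 it was 2.83, 2.51 and 2.8 CPM in FBS and 5.89, 5.59 and 3.69 in CSS, a rise of 1.85-fold (edgeR FDR 1.48e-05). SMOX in CSS was above SMOX in FBS in every pair of libraries. SAT1 with vehicle was 27.0, 26.0 and 27.8 CPM in FBS and 41.9, 38.3 and 35.7 in CSS, a rise of 1.43-fold (edgeR FDR 7.33e-07), and it rose 1.40-fold with SNX631 (edgeR FDR 7.12e-06). OAZ1 with vehicle was 558, 567 and 570.2 CPM in FBS and 368, 372 and 398 in CSS, a fall to 0.672-fold (edgeR FDR 1.22e-16), and it fell to 0.672-fold with SNX631 (edgeR FDR 1.98e-16). Neither SAT1 nor OAZ1 overlapped between media.

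With vehicle, 3 of the 4 biosynthetic genes and AZIN1 fell in Rv1-WT in CSS, where 36.2% of all genes passed the test. None of these falls was called, against 10.9% of all genes called in either direction. SMS fell to 0.754-fold (edgeR FDR 2.37e-08), SRM to 0.782-fold (edgeR FDR 1.56e-05), ODC1 to 0.897-fold (edgeR FDR 0.000699) and AZIN1 to 0.915-fold (edgeR FDR 0.00471). AMD1 was 0.12 lower on the log2 scale (log2 change -0.12, edgeR FDR 0.0353, or 0.00656 with only those libraries fitted), and with SNX631 it rose 1.16-fold in CSS (edgeR FDR 0.000102). PAOX was 3.53, 3.88 and 3.76 CPM in FBS and 2.17, 3.10 and 2.33 in CSS, a fall to 0.676-fold (edgeR FDR 0.00682) that no longer passed without any 1 of the FBS libraries (edgeR FDR 0.0114 to 0.0252) or without the CSS library of replicate 1 (edgeR FDR 0.0503) or 3 (edgeR FDR 0.0347), nor with DESeq2 (adjusted p 0.0124), scaling by library size alone (edgeR FDR 0.0163), no filter (edgeR FDR 0.016) or only those libraries fitted (edgeR FDR 0.012), so that 3 of 12 alternatives kept it. The changes of ODC1 and AZIN1 no longer passed with scaling by library size alone (edgeR FDR 0.0249 and 0.16), and that of AZIN1 also not without a filter (edgeR FDR 0.0222) or without 1 of the FBS vehicle libraries, replicate 1 (edgeR FDR 0.0213) or 2 (edgeR FDR 0.0127), or of the CSS vehicle libraries, replicate 1 (edgeR FDR 0.034) or 3 (edgeR FDR 0.0112). With SNX631, AZIN1 fell to 0.901-fold (edgeR FDR 0.00107) and OAZ2 to 0.891-fold (edgeR FDR 0.00548). The AZIN1 change no longer passed without the CSS library of replicate 1 (edgeR FDR 0.0184) or with scaling by library size alone (edgeR FDR 0.0124). The OAZ2 change no longer passed with that scaling (edgeR FDR 0.0229), without a filter (edgeR FDR 0.0198) or without an FBS library, replicate 1 (edgeR FDR 0.0284) or 3 (edgeR FDR 0.0184), or a CSS library, replicate 1 (edgeR FDR 0.013) or 3 (edgeR FDR 0.0493).

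In Rv1-Luc the CSS effect on 3 of the 10 genes departed from that in Rv1-WT, in a test that 25% of all genes passed. SMOX with vehicle was 1.78, 1.76 and 1.50 CPM in FBS and 1.44, 1.08 and 1.52 in CSS, a log2 change of -0.31 (edgeR FDR 0.366). OAZ1 was 625, 591 and 624 CPM in FBS and 600.3, 613 and 591 in CSS, and PAOX was 3.84, 2.72 and 4.17 in FBS and 4.18, 4.55 and 4.11 in CSS. The groups of OAZ1 and of PAOX overlapped. The CSS effect in Rv1-Luc minus that in Rv1-WT was -2.05 on the log2 scale for SMOX (edgeR FDR 3.35e-08), 0.54 for OAZ1 (edgeR FDR 2.26e-10) and 0.82 for PAOX (edgeR FDR 0.00311). Without the Rv1-Luc FBS vehicle library of replicate 1 these differences were -2.004, 0.56 and 0.88 (edgeR FDR 4.27e-07, 5.12e-10 and 0.00271). The PAOX difference was lost without the Rv1-WT CSS library of replicate 1 (edgeR FDR 0.0167) or 3 (edgeR FDR 0.0119) or the Rv1-Luc FBS library of replicate 2 (edgeR FDR 0.02), and with only those libraries fitted (edgeR FDR 0.0122). For SRM, SMS and SAT1 the difference did not pass with all libraries and did without that one (log2 0.33, 0.27 and -0.42). With that library kept, SRM also passed without a filter (edgeR FDR 0.00516) and SMS without the Rv1-WT CSS library of replicate 3 (edgeR FDR 0.00875). AZIN1 in CSS against FBS in Rv1-Luc, at -0.11 with that library (edgeR FDR 0.0315), also passed without it (log2 -0.17, edgeR FDR 0.00116). In Rv1-Luc ODC1 fell to 0.843-fold in CSS (edgeR FDR 2.93e-06), and its log2 change was -0.25 without the FBS library of replicate 1 (edgeR FDR 1.64e-05). SMS was just above the limit (log2 -0.19, edgeR FDR 0.0105) and passed under 6 of 12 alternatives, DESeq2 among them (adjusted p 0.00712), whereas without the FBS library of replicate 1 it was at -0.13 (edgeR FDR 0.137). AMD1 fell to 0.873-fold (edgeR FDR 0.00171), a change that no longer passed without the FBS library of replicate 1 (log2 -0.13, edgeR FDR 0.0647) or the CSS library of replicate 2 (edgeR FDR 0.0244) or with only those libraries fitted (edgeR FDR 0.0182), with a range over its alternatives of 8.65e-05 to 0.0647.

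**Figure D4:**
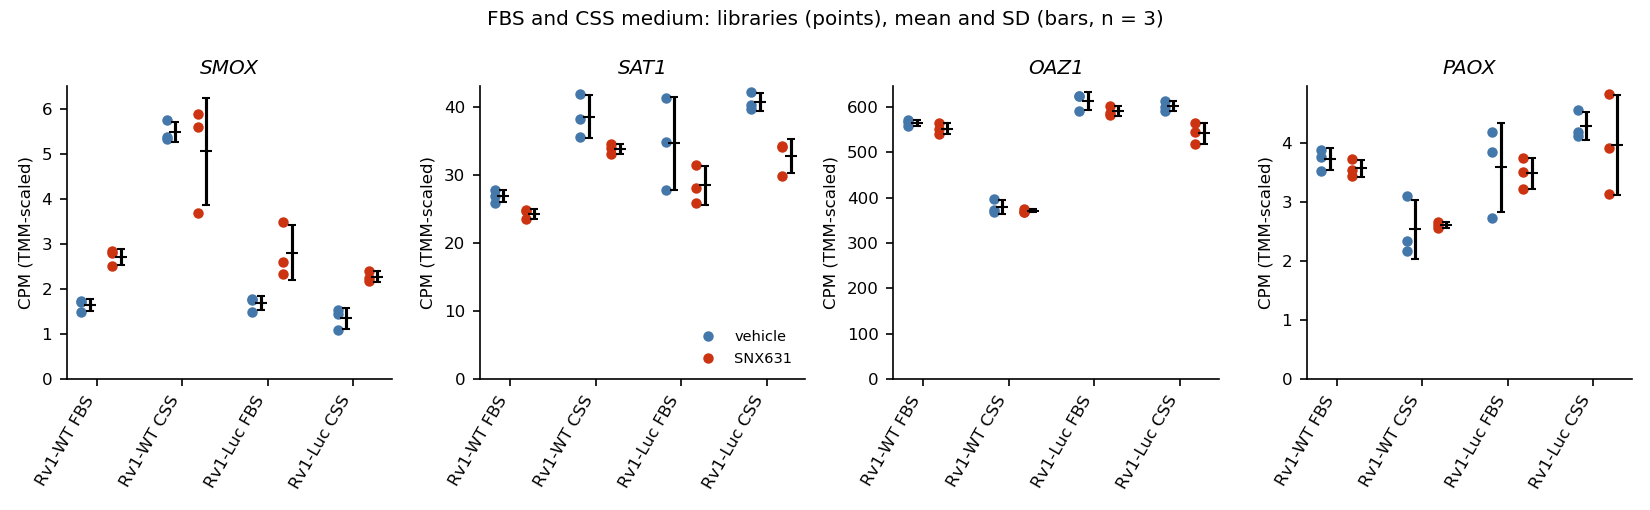
SMOX, SAT1, OAZ1 and PAOX in CPM by line and medium (horizontal axis), each library as a point with the mean and SD of 3 libraries as bars, vehicle in blue and SNX631 in red. SMOX with vehicle sits at 5.33 CPM or more in Rv1-WT in CSS and at 1.78 or less in the other 3 settings.

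Over the list, CSS passed 8 of 10 genes and called 1 in Rv1-WT with vehicle, where 36.2% of all genes passed and 10.9% were called, and passed 6 and called 1 with SNX631, where 31.3% passed and 7.83% were called. The called gene was SMOX both times. In Rv1-Luc 2 passed and 0 were called with vehicle (7.94% and 1.49% of all genes), and 0 passed with SNX631 (7.06% and 1.51%). In the latter 5 had an unadjusted edgeR p under 0.05, a limit for which no share of all genes is given. DESeq2 passed 0 of the list there, against 1451 of all 20009 genes. The difference between the 2 lines passed for 3 genes and was called for 2, against 25% and 8.65% of all genes. Median log2 changes of the list were -0.14, -0.16, -0.11 and -0.09 in these 4 comparisons, beside 0.007 to 0.01 over all genes. The vehicle libraries enter both the SNX631 and the CSS comparisons, so these are not independent of each other.

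Loss of kinase activity was compared with vehicle. AMD1 was 264, 279 and 275 CPM in dKO-8 and 352, 343 and 338 in dKO-8M, a rise of 1.26-fold (edgeR FDR 2.56e-08). ODC1 was 311, 313 and 305 CPM in dKO-8 and 240.4, 237 and 232 in dKO-8M, a fall to 0.763-fold (edgeR FDR 2.29e-12). SAT1 was 44.9, 44.6 and 43.9 CPM in dKO-8 and 35.4, 34.2 and 33.2 in dKO-8M, a fall to 0.773-fold (edgeR FDR 8.13e-05). None of these groups overlapped. AMD1 was 303, 322 and 306 CPM in dKO-19 and 344, 363 and 357 in dKO-19M, a rise of 1.15-fold (edgeR FDR 0.000558). ODC1 was 391, 383 and 397 CPM in dKO-19 and 333, 302 and 293 in dKO-19M, a fall to 0.792-fold (edgeR FDR 1.41e-10). AZIN1 fell to 0.844-fold in dKO-19M (edgeR FDR 2.84e-07), and SAT1 was 0.13 higher on the log2 scale (edgeR FDR 0.197). Without the dKO-19M library of replicate 1 the log2 changes of AMD1, ODC1 and AZIN1 were 0.22, -0.39 and -0.23, all still past the test, and OAZ1, at -0.02 with that library (edgeR FDR 0.826), was lower by 0.12 without it (log2 -0.12, edgeR FDR 0.00442). The AMD1 change had an FDR of 0.0181 with only those libraries fitted, the highest over alternatives that started at 1.74e-05. The mutants differed from the active lines also in the RNA of the kinase put back (above), and the part of that difference in these changes was not tested. Mutant and active lines are separate derivatives, so kinase loss and other differences between derivatives cannot be told apart. The FDR measures the spread between cultures of a line. Of the 10 genes 3 passed and 0 were called in each comparison, against 21.8% passing and 7.02% called of all genes for dKO-8M and 24% and 7.6% for dKO-19M.

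Rv1-Luc and Rv1-WT differed in FBS with vehicle. AMD1 was 499, 514 and 515 CPM in Rv1-WT and 394, 338 and 354 in Rv1-Luc, or 0.711-fold (edgeR FDR 8.25e-14). SRM rose 1.24-fold (edgeR FDR 4.74e-05), ODC1 1.12-fold (edgeR FDR 0.000281) and SAT1 1.29-fold (edgeR FDR 0.000213) in Rv1-Luc, and AZIN1 fell to 0.867-fold (edgeR FDR 6.84e-06). SAT1 overlapped between the lines, and its change no longer passed without the Rv1-Luc library of replicate 2 (log2 0.22, edgeR FDR 0.0218) or with only those libraries fitted (edgeR FDR 0.0136). Without the Rv1-Luc library of replicate 1 the log2 changes of AMD1, SRM, ODC1, SAT1 and AZIN1 were -0.56, 0.24, 0.17, 0.50 and -0.15, and all 5 stayed under an FDR of 0.01. Of the 10 genes 5 passed and 0 were called, against 41.8% and 17.8% of all genes. Sequencing depth differed between these lines as well (above), and its part in these values was not tested. The subline and any library batch cannot be told apart. The FDR here measures the spread between cultures, not between separately derived lines.

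The balance of AMD1 and ODC1 within a library joined the changes of both genes. With SNX631, ODC1 itself did not pass the test in Rv1-WT in either medium or in Rv1-Luc in CSS. The log2 ratio of AMD1 to ODC1 CPM averaged -0.19 ± 0.045 (SD, n = 3) in dKO-8 with vehicle and 0.50 ± 0.054 with SNX631, and it was 0.54 ± 0.009 in dKO-8M with vehicle and 0.56 ± 0.048 with SNX631. In dKO-19 it averaged -0.33 ± 0.07 with vehicle and 0.47 ± 0.03 with SNX631, and in dKO-19M 0.20 ± 0.131 and 0.36 ± 0.016. In Rv1-WT it went from 0.59 ± 0.019 to 1.14 ± 0.065 in FBS and from 0.63 ± 0.055 to 1.46 ± 0.015 in CSS. In Rv1-Luc it went from -0.07 ± 0.124 to 1.08 ± 0.153 in FBS and from -0.02 ± 0.1 to 0.99 ± 0.054 in CSS. The SNX631 libraries were above the vehicle libraries in every line with an active kinase, whereas the groups overlapped in dKO-8M and did not in dKO-19M.

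Over the 16 group means of log2 CPM, taken with a prior count that narrows the range of low genes, SMOX had the widest range, at 1.965, followed by AMD1 at 1.574 and PAOX at 1.036, and OAZ2 the narrowest, at 0.312. Group means of SMOX on the CPM scale ran from 1.35 CPM in Rv1-Luc in CSS with vehicle to 5.49 in Rv1-WT in CSS with vehicle, and those of AMD1 from 273 CPM in dKO-8 with vehicle to 811 in Rv1-WT in CSS with SNX631. Among the 45 pairs of the 10 genes, Pearson r over the 16 group means was highest for AZIN1 and OAZ2 (0.641) and lowest for PAOX and SMOX (-0.863). It was -0.022 for AMD1 and ODC1. The points share 6 lines, so these values describe the lines as much as the treatments. By the same measure, among 12111 genes with a mean of at least 5 CPM, the patterns nearest to AMD1 were those of CAPZA2 (r 0.944), FTO (0.923) and PPP3CA (0.92). Those nearest to SMOX were CAPN7 (0.941), SMAD1 (0.938) and PIK3C2B (0.935), and those nearest to PAOX were CSK (0.922), PPFIA3 (0.91) and CD82 (0.904).

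Of 26 other genes of the pathway, 25 passed the filter on low counts. They cover ornithine supply, further antizyme relatives, transport, S-adenosylmethionine supply and methionine salvage, and hypusination, the spermidine-dependent modification of EIF5A. With SNX631, 4 of 25 passed in FBS cultures of Rv1-WT, against 8.78% of all genes, and 6 in its CSS cultures, against 17.6%. The counts for Rv1-Luc were 5 with FBS (13.2% of all genes) and 8 with CSS (15.8%). The count was 3 in dKO-8 (7.76%), 1 in dKO-19 (13.2%), 0 in dKO-8M (0.15%, and 4 of the list at an unadjusted edgeR p under 0.05) and 1 in dKO-19M (0.955%). No share of all genes is given for that unadjusted limit. SLC3A2, the heavy chain of amino acid exchangers that also has a part in polyamine transport, fell to 0.561-fold in dKO-8 (log2 -0.83 ± 0.051 SE, edgeR FDR 6.99e-19) and to 0.560-fold in dKO-19 (log2 -0.84 ± 0.052, edgeR FDR 1.95e-19). It fell by less in dKO-19M (log2 -0.30, edgeR FDR 0.000324), and the responses of the active and mutant lines differed by -0.63 for CDK8 (edgeR FDR 9.11e-09) and -0.54 for CDK19 (edgeR FDR 1.24e-07). In Rv1-WT and Rv1-Luc SLC3A2 was not called with SNX631 in either medium. SLC3A2 also fell to 0.541-fold in dKO-8M against dKO-8 with vehicle (edgeR FDR 6.11e-21) and rose 2.00-fold in Rv1-WT in CSS with vehicle (edgeR FDR 4.78e-23). It was not called lower in dKO-19M against dKO-19 with vehicle.

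Several genes of ornithine supply differed between lines. OAT, which interconverts ornithine and glutamate semialdehyde, was 0.248-fold in Rv1-Luc against Rv1-WT in FBS with vehicle (edgeR FDR 2.26e-32) and 2.17-fold in dKO-19M against dKO-19 (edgeR FDR 6.34e-15). With SNX631 OAT fell to 0.652-fold in dKO-8 (edgeR FDR 5.22e-06). The arginase ARG1, at a mean of 2.02 CPM, rose with SNX631 1.98-fold in Rv1-Luc in FBS (edgeR FDR 0.000573), 2.17-fold in CSS (edgeR FDR 0.00046) and 1.61-fold in dKO-8 (edgeR FDR 0.00455). ARG2 was 2.11-fold in dKO-19M against dKO-19 (edgeR FDR 9.57e-11). AGMAT, an agmatinase relative, was 1.63-fold with SNX631 in Rv1-WT in FBS (edgeR FDR 0.0067) and 0.381-fold in dKO-8M against dKO-8 (edgeR FDR 2.87e-06), and EIF5A2 was 0.558-fold in dKO-19M against dKO-19 (edgeR FDR 2.12e-05). In Rv1-WT with vehicle CSS passed 15 of the 25, 5 higher and 10 lower, against 36.2% of all genes, with a median log2 change of -0.09 beside 0.007 over all genes. Leaving out single libraries was not run for these 25 genes.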

How the data were processed

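RNA was sequenced from 48 cultures in 16 groups of 3 biological replicates. The authors deposited 1 table of estimated counts per gene, and the submitters' processing notes name FastQC, cutadapt 2.8, STAR 2.7.2b, featureCounts, Subread 2.0.3 and the builds GRCh38.p13 and GRCm39, whose roles are not given in the sources used here. Of the nonzero values 81.6% were whole, and all were rounded before fitting. The 2 transgene entries of 61817 were left out. Genes were kept with edgeR's filter (minimum count 10, minimum total 15), scaled by TMM (factors 0.911 to 1.07) and fitted with edgeR 4.0.16 quasi-likelihood in 1 model of all 48 libraries (32 residual degrees of freedom, biological coefficient of variation 4.2%) under R 4.3.3 and limma 3.58.1. FDR is the Benjamini-Hochberg adjusted p over the 20009 genes. A gene passed at an FDR under 0.01 and was called with a fold change also over 1.5. CPM values are TMM-scaled and intervals are 95%. Alternatives were other scaling, no filter, a replicate block, only the libraries compared, other limits, DESeq2 1.42.0 and each library left out. The scripts were tested on simulated data, where changed genes of low level were recovered less often than others, and the criterion was set by level after it had first been missed.

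Replicate numbers paired the samples in 1 of 15 comparisons, SNX631 in dKO-19M, where every correlation of same-numbered deviations was over 0.1 (range over all comparisons -0.161 to 0.412), and no shared source is stated, so the model has no block.

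Genes were named in the text if they belonged to the 10 members, or to the list of 26 other pathway genes and were called in any of 22 comparisons. The 3 genes most like each of the 3 members with the widest range, and CDK8 and CDK19, were named too. The members, lists and markers were chosen with earlier results of these data known. Promoter windows are from RefSeq (GRCh38.p14) and exon lengths from GENCODE 29. Libraries held 13.2 to 31.5 M counts, and the low counts of PAOX and SMOX limit their precision most.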

Additional observations from a re-analysis of the deposited data

Results flagged for a closer look

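Differences between responses were tested themselves in the edgeR model, and those of member genes that passed are given here. Of all genes, 1.38% passed for CSS against FBS in Rv1-WT, 0.17% for the same in Rv1-Luc, 0.655% for Rv1-Luc against Rv1-WT, 3.31% for dKO-8 against dKO-8M, 5.66% for dKO-19 against dKO-19M, 2.43% for dKO-19 against dKO-8 and 25% for the CSS effect. AMD1 responded to SNX631 more in CSS than in FBS in Rv1-WT (log2 difference 0.33, edgeR FDR 0.000865), more in Rv1-Luc than in Rv1-WT in FBS (0.41, edgeR FDR 2.93e-05), more in dKO-8 than in dKO-8M (0.35, edgeR FDR 0.000119) and more in dKO-19 than in dKO-19M (0.41, edgeR FDR 4.05e-06). ODC1 responded in the opposite direction, with a difference of -0.31 for dKO-8 against dKO-8M (edgeR FDR 5.97e-05) and -0.23 for dKO-19 against dKO-19M (edgeR FDR 0.00198), the latter lost without the dKO-19M vehicle library of replicate 3 (edgeR FDR 0.0141). SAT1 differed by -0.52 between dKO-19 and dKO-19M (edgeR FDR 0.000713). The effect of CSS in Rv1-Luc minus that in Rv1-WT was 0.54 for OAZ1 (edgeR FDR 2.26e-10), 0.82 for PAOX (edgeR FDR 0.00311) and -2.05 for SMOX (edgeR FDR 3.35e-08), and that of PAOX was lost without the Rv1-WT CSS library of replicate 1 (edgeR FDR 0.0167) or 3 (edgeR FDR 0.0119) or the Rv1-Luc FBS library of replicate 2 (edgeR FDR 0.02). Differences of the dKO lines share their vehicle and SNX631 libraries across genes, and no cause of these differences was tested.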

How the results depend on the processing

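No change of a member gene that passed the test reversed under any alternative, whereas some changes that did not pass had estimates on both sides of 0. With no fold limit the number of the 10 genes called was 1 for SNX631 in Rv1-WT in FBS, 4 in CSS, 5 and 5 in Rv1-Luc in FBS and CSS, 2 in dKO-8 and 4 in dKO-19. It was then 8 and 6 for CSS in Rv1-WT with vehicle and SNX631, 2 for CSS in Rv1-Luc with vehicle, 3 for each mutant line and 5 for Rv1-Luc against Rv1-WT. For differences between SNX631 responses it was 1 for CSS against FBS in Rv1-WT and 1 for Rv1-Luc against Rv1-WT. It was 2 for dKO-8 against dKO-8M and 3 for dKO-19 against dKO-19M. For the CSS effect in Rv1-Luc minus that in Rv1-WT it was 3. These counts use the FDR limit alone, so the shares of all genes passing, given above, are their background. With only the libraries compared, calls were 1 for SNX631 in Rv1-Luc in FBS, 1 in CSS and 1 for the difference in the CSS effect. Of all genes tested there, 515 of 17965, 696 of 17798 and 1637 of 18555 were called. Tested against a fold of 1.5 itself, they were 1, 1 and 1 for the same results and 0 for SNX631 in dKO-19 and for CSS in Rv1-WT with SNX631. No share of all genes is given for that test. Without a filter 0 of the 10 genes were called for SNX631 in dKO-19, against 698 of 40418 genes. Apart from construction, the cause was not tested.

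Leaving out each library in turn gave 1 to 2 calls for SNX631 in Rv1-Luc in either medium, for CSS in Rv1-WT with vehicle and with SNX631 and for the difference in the CSS effect, and 0 to 1 for SNX631 in dKO-19 and for dKO-19 against dKO-19M. Calls stayed at 1 for SNX631 in Rv1-WT in CSS and at 0 in the other comparisons. No share of all genes is given for these fits, so their counts have no background. With the replicate block all 22 counts held, with 10 calls in all against 10, and 219 of 220 member values kept their side of the threshold. The block is a replicate effect shared by all groups, so it cannot take up pairing within a single line such as dKO-19M. DESeq2 kept 214 of 220, scaling by library size alone 206, no filter 207 and only the libraries compared 200, and leaving out single libraries kept 1683 of 1740.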
